A study of Mus musculus with 2 samples.

Results

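The genes described here are the Wnt ligands, their Frizzled (*Fzd*) receptors and *Lrp5* and *Lrp6* co-receptors, the secreted *Sfrp* and *Dkk* antagonists, the R-spondins (*Rspo*), and the pathway genes *Axin1*, *Axin2* and *Lef1*. They were chosen by symbol alone, and 47 of the 31053 genes listed in the files fit the rule. These are 19 *Wnt* genes, 10 *Fzd* genes, 2 *Lrp* genes, 8 antagonists, 4 R-spondins, 2 *Axin* genes, *Lef1*, and *Rspo4os*, an RNA from the strand opposite *Rspo4*. The study profiled primary mouse brain pericytes (PCs) in culture by droplet single-cell RNA-seq, from 1 culture at passage 5 (PC5) and 1 at passage 20 (PC20). Its main question was how cultured PCs compare with those in the brain, and the passages were compared with each other beside it. Both cultures were grown from brains of female wild-type C57BL/6N mice aged 6 to 8 weeks, on collagen, in endothelial growth medium and then in a commercial pericyte medium, with no transgene. The cultures are taken as separate isolations, each from pooled brains of 6 mice, although the deposited design text speaks of a single isolation. Passage and isolation therefore cannot be told apart below. PC5 held 9950 kept cells with 223054273 unique molecular identifiers (UMIs, each standing for a captured RNA molecule), and PC20 held 4749 kept cells with 191122251 UMIs. The median cell had 21700 UMIs in PC5 against 33424 in PC20. The libraries shared 20 barcodes.

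With 1 library per passage no test between passages was possible, and all intervals are 95% intervals of counting error in these libraries only. The pericyte label was checked against marker genes. Of 10 mural cell markers, 5 were measured in PC5 (summed level 65.4 CPM) against 3 in PC20 (11.1 CPM). *Pdgfrb* (44.6 and 5.43 CPM), *Notch3* (11.1 and 1.60) and *Cspg4* (5.55 and 0.0994) were higher in PC5. *Anpep* (1.93 and 3.00 CPM) and *Des* (0.251 and 0.937) were higher in PC20. In PC20 *Rgs5*, *Kcnj8*, *Vtn* and *Higd1b* had 0 UMIs, against 405, 13, 20 and 1 in PC5. *Abcc9* had 1 UMI in each library. The 6 fibroblast markers summed to 3614 CPM in PC5 against 107 CPM in PC20, with *Lum* at 0 in PC20, and the 7 endothelial markers to 199 and 74.1 CPM, made up in PC5 mostly of *Cdh5* (168 CPM, against 0.0262 in PC20) and in PC20 mostly of *Flt1* (73.9 CPM, against 17.6 in PC5), while *Cldn5* was at 0.0628 and 0.0419 CPM. Smooth muscle markers summed to 283 and 49.6 CPM, and astrocyte markers to 156.5 and 233 CPM, mostly from *Slc4a4* (143.5 and 228.5 CPM), with *Gfap* at 0 in PC20. The keratins *Krt8* and *Krt18* made up nearly all of the 1012 CPM of epithelial markers in PC20, against 0.229 CPM in PC5. Microglia, oligodendrocyte and neuron markers stayed under 6 CPM in sum in either library. *Krt18* alone was at 913 CPM in PC20 and 0.135 CPM in PC5, and the fibroblast collagen gene *Col1a2* at 0.0471 and 1737 CPM. These levels differed between the libraries along with those of the Wnt genes, and their part in the values below was not tested. Whether the 2 cultures hold the same population of cells at different passages cannot be told from 1 library each, so each ratio compares 2 cultures and not the same cells over time.

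Wnt proteins are secreted, lipid-modified signals that bind Frizzled receptors. With *Lrp5* or *Lrp6* as co-receptor the signal stops the AXIN complex from degrading β-catenin, which then acts with TCF and LEF factors in the nucleus, while other Wnt signals work without β-catenin through receptors such as ROR2. In the brain, Wnt signals from neural cells are known for inducing the blood-brain barrier in endothelial cells, and mural and fibroblast-like cells are known sources and targets of Wnt proteins elsewhere in the body.

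Levels are given as counts per 1000000 (CPM), that is UMIs summed over kept cells and scaled to 1000000 UMIs in the library. The 3′ protocol counts each captured molecule once whatever its length, so levels were not divided by gene length. Ratios are log2 of the CPM in PC5 over PC20. A gene was called measured where at least 1% of cells had a UMI in either library after each cell was thinned to 10500 UMIs. Of the 47 genes, 20 were measured. Of these, 12 passed in both libraries, 7 only in PC5 (*Wnt2*, *Wnt7b*, *Wnt16*, *Fzd3*, *Dkk2*, *Dkk3* and *Axin2*) and 1 only in PC20 (*Fzd4*), and these 8 had to differ between libraries to be measured. Among all 12282 measured genes, 8.70% passed only in PC5, 4.98% only in PC20 and 86.3% in both. Of the 20 genes, 11 were higher in PC5 by more than 2-fold, where 21.6% of all measured genes were, and 2 were higher in PC20 by more than 2-fold, where 18.9% of all measured genes were. The other 7 lay within 2-fold, where 40.5% of all genes lay outside it. The median log2 ratio of the 20 genes was 1.75 and that of all measured genes 0.04. That median depends on which low genes are counted: over the 12 genes that passed in both libraries it was 0.29, against -0.02 over all genes that did, and with a minimum of a UMI in 10% or 1% of unthinned cells it was 0.70 or 0.53. With a minimum of 10 UMIs in either library it was 1.74. In the cells with a *Pdgfrb* UMI, and again in the cells with no *Pdgfra* UMI, 11 genes were higher in PC5, with medians of 1.43 and 1.50. The shares of all genes past 2-fold in these cells are not given here. A *Pdgfrb* UMI was seen in 5394 PC5 and 783 PC20 cells. A *Pdgfra* UMI was seen in 68.7% of PC5 and 0.442% of PC20 cells, so leaving these out changed PC20 little. Neither choice makes the 2 cultures matched populations. Summed over all 47 genes, the level was 452 CPM in PC5 against 184 CPM in PC20, for a log2 ratio of 1.30 (1.28 to 1.32).

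**Figure D1:**
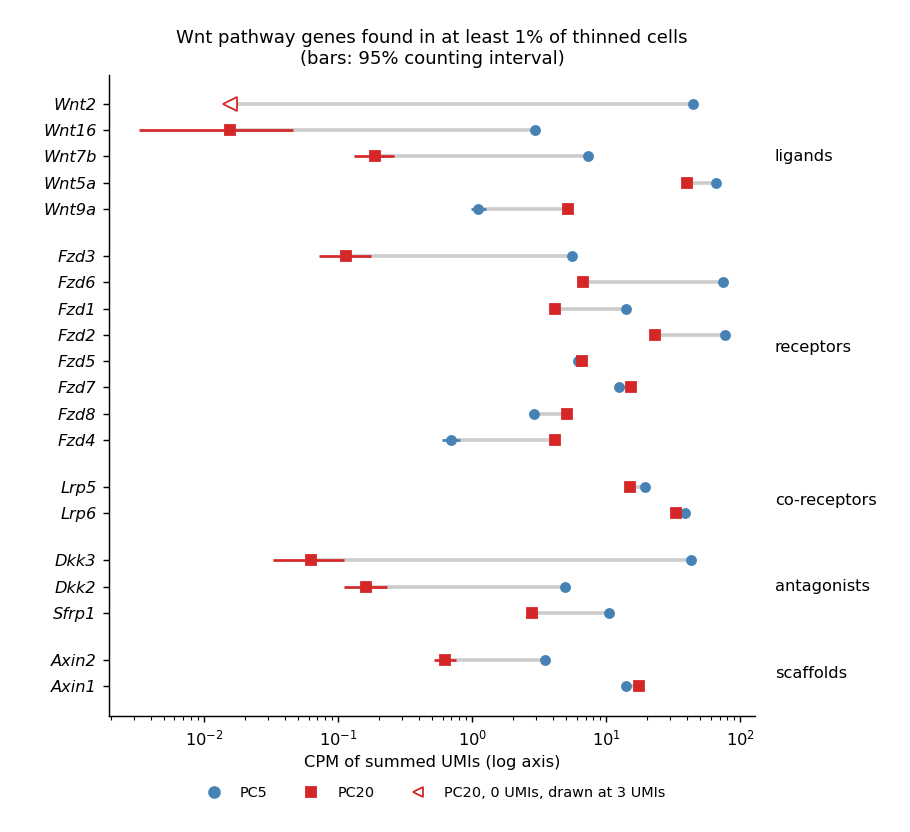
CPM of summed UMIs of the 20 measured genes on a log axis, with circles for PC5, squares for PC20 and bars for the 95% counting interval, grouped by role. *Wnt2* with 0 UMIs in PC20 is drawn as an open triangle at the level of 3 UMIs (0.0157 CPM). The widest gaps are those of *Wnt2*, *Dkk3* and *Wnt16*, while *Lrp5*, *Lrp6*, *Fzd5*, *Fzd7* and *Axin1* nearly coincide in the 2 libraries.

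The ligands *Wnt2* and *Wnt9a* had the largest ratios toward PC5 and PC20 among measured ligands, and *Axin2* is a feedback target of β-catenin, so the 250 bases before their transcription starts are shown 5′ to 3′ on the gene's strand, from RefSeq on GRCm38.p6. The window of *Wnt2* is chr6:18030446-18030695 on the minus strand, that of *Wnt9a* is chr11:59306680-59306929 on the plus strand, and that of *Axin2* is chr11:108920099-108920348 on the plus strand. In the GENCODE M21 annotation *Wnt2* starts at 18030585, inside its window, so by that annotation part of the window lies within the gene. Capitals mark GC boxes (GGGCGG on either strand), the letters bound by SP factors.
*Wnt2*: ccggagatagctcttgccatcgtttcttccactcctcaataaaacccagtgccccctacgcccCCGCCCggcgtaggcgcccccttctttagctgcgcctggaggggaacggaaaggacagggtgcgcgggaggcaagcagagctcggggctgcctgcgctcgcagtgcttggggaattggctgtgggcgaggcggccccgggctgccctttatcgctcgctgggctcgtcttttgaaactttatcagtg
*Wnt9a*: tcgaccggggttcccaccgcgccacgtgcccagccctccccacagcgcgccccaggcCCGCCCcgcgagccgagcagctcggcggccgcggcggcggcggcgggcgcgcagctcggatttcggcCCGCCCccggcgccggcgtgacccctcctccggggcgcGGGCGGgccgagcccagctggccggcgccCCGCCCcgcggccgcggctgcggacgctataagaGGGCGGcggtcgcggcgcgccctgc
*Axin2*: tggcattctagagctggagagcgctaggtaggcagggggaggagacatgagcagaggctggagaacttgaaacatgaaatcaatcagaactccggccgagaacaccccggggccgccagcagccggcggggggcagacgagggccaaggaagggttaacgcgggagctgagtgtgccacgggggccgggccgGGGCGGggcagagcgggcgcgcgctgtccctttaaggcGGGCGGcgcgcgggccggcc

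The *Wnt2* window held 1 GC box and 20 CpG dinucleotides, that of *Wnt9a* 5 GC boxes and 48 CpGs, and that of *Axin2* 2 GC boxes and 24 CpGs. Over all 32851 RefSeq windows of this length, 32.7% held a GC box and the median number of CpGs was 6, so all 3 windows are rich in CpG. The letters of a TCF/LEF site, searched on either strand as CTTTGAA and CTTTGAT and as their variants CTTTGTA and CTTTGTT, occurred in 14.8% of all windows. None of the 3 windows held them. A RefSeq window was found for 29 of the 47 genes and 9 of the 20 measured ones, and of these 9 only that of *Fzd7* held these letters. A match of letters is not a site in use, and its absence here says nothing of the factors.

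Among the roles, measured ligands had the widest range of ratios. Of 19 *Wnt* genes 5 were measured. Past 2-fold, 3 of them were higher in PC5 and 1 in PC20, beside 21.6% and 18.9% of all measured genes. These 3, *Wnt2*, *Wnt7b* and *Wnt16*, passed the minimum only in PC5, so they had to differ between libraries to be measured. The 2 that passed in both were *Wnt5a* (log2 ratio 0.70) and *Wnt9a* (-2.22). *Wnt2* (chromosome 6, 17988940 to 18030585 on GRCm38 by GENCODE M21), a ligand that signals through β-catenin in lung and heart development, had 9887 UMIs in PC5 (44.3 CPM, 43.5 to 45.2) against 0 in PC20. A UMI was seen in 33.8% of thinned PC5 cells and 50.7% of unthinned ones, and in none of the 4474 thinned PC20 cells. At that depth 3 counts would be a share of 0.0671% of cells with a UMI, and the upper Clopper-Pearson limit is 0.0824%. Set against 3 UMIs in PC20, its level was 2820-fold higher in PC5 (log2 ratio 11.46). The lower limit of the counting interval of its log2 ratio was 11.16. The gene was thus found across the whole PC5 culture and not at all in PC20.

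*Wnt5a*, the ligand best known for signalling without β-catenin, was the most abundant *Wnt* gene in both libraries. It had 65.7 CPM in PC5 (64.6 to 66.7) against 40.3 CPM in PC20 (39.4 to 41.2), for a log2 ratio of 0.70 (0.66 to 0.74). A UMI was seen in 43.1% of thinned PC5 cells and 31.3% of thinned PC20 cells, whereas in unthinned cells, which were deeper in PC20, the shares were 59.5% and 62.6%.

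*Wnt7b*, one of the neural ligands that induce the blood-brain barrier, had 1617 UMIs in PC5 (7.25 CPM) against 36 in PC20 (0.188 CPM), for a log2 ratio of 5.27 (4.79 to 5.79). *Wnt16*, known for its role in bone, had 651 UMIs in PC5 (2.92 CPM) against 3 in PC20 (0.0157 CPM), for a log2 ratio of 7.54 with the wide interval of 5.99 to 9.82 that 3 UMIs allow. *Wnt9a*, a ligand of developing joints, went the other way, with 248 UMIs in PC5 (1.11 CPM, 0.978 to 1.26) against 989 in PC20 (5.18 CPM, 4.86 to 5.51), for a log2 ratio of -2.22 (-2.43 to -2.02). In PC5 it was just inside the 1% minimum with 1.07% of thinned cells, against 5.30% in PC20.

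Of the other 14 ligands, *Wnt3a*, *Wnt8a* and *Wnt9b* had 0 UMIs in both libraries. *Wnt4*, just outside the minimum with 0.825% and 0.983% of thinned cells, had 232 UMIs in PC5 against 204 in PC20. *Wnt7a*, the close relative of *Wnt7b*, was on the opposite side of it with 3 UMIs in PC5 against 93 in PC20, for a log2 ratio of -5.18 (-7.48 to -3.59). *Wnt2b*, the close relative of *Wnt2*, lay on the same side as *Wnt2* with 78 UMIs in PC5 against 1 in PC20, and *Wnt6* had 62 and 8 UMIs. *Wnt5b* had 92 and 23 UMIs and *Wnt10b* 54 and 65. The remaining 5 had at most 19 UMIs in either library.

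The makeup of the ligand RNA therefore differed between the libraries. All *Wnt* genes together reached 124 CPM in PC5 against 47.8 CPM in PC20, for a log2 ratio of 1.37 (1.34 to 1.41). In PC5 *Wnt5a* gave 53.1% of these UMIs, *Wnt2* 35.8%, *Wnt7b* 5.86% and *Wnt16* 2.36%. In PC20 *Wnt5a* gave 84.3%, *Wnt9a* 10.8%, *Wnt4* 2.23% and *Wnt7a* 1.02%. Thus PC5 held 2 abundant ligands and PC20 only 1.

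**Figure D2:**
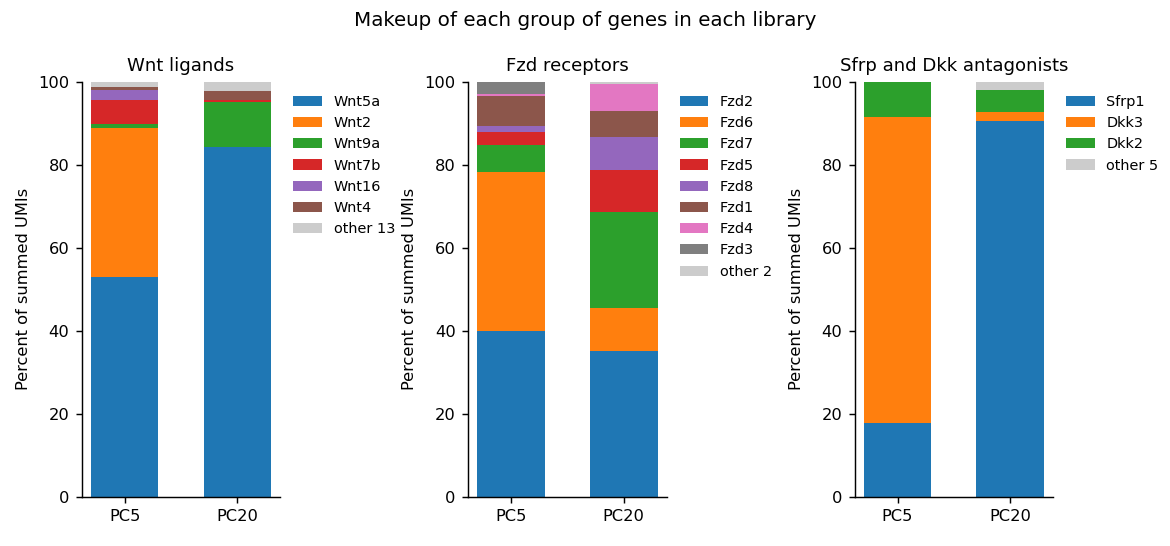
Percent of the summed UMIs of the *Wnt* ligands, the *Fzd* receptors and the *Sfrp* and *Dkk* antagonists that each gene contributed in PC5 and PC20, as stacked bars from 0 to 100. Genes under 2% in both libraries are shown together in grey. *Wnt2*, *Fzd6* and *Dkk3* are large in PC5 and small or absent in PC20, where *Wnt5a*, *Fzd7* and *Sfrp1* take larger shares.

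Of the 10 Frizzled receptors 8 were measured, 4 higher in PC5, 1 higher in PC20 and 3 within 2-fold, with a median log2 ratio of 0.81. Of all measured genes, 21.6% were higher in PC5 and 18.9% in PC20 past 2-fold. While 6 of the 8 passed the minimum in both libraries, *Fzd3* passed only in PC5 and *Fzd4* only in PC20. Those 2 had to differ between libraries to be measured. *Fzd2* was the most abundant in both libraries, with 77.0 CPM in PC5 (75.8 to 78.2) against 23.0 CPM in PC20 (22.4 to 23.7), for a log2 ratio of 1.74 (1.69 to 1.79). *Fzd6*, a receptor of the planar polarity pathway, was nearly as abundant in PC5 with 74.3 CPM (73.2 to 75.5) but had 6.68 CPM in PC20 (6.32 to 7.06), for a log2 ratio of 3.48 (3.39 to 3.56). It was found in 45.2% of thinned PC5 cells and 6.46% of thinned PC20 cells (61.7% and 21.7% unthinned). The intervals of *Fzd2* and *Fzd6* in PC5 did not overlap, but their levels were within a few percent of each other, while in PC20 they were far apart.

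*Fzd1* had 14.1 CPM in PC5 against 4.17 CPM in PC20, for a log2 ratio of 1.76 (1.65 to 1.88). *Fzd3*, another planar polarity receptor, had 1231 UMIs in PC5 (5.52 CPM) against 22 in PC20 (0.115 CPM), for a log2 ratio of 5.58 (4.98 to 6.26). *Fzd6* and *Fzd3* thus both had higher levels in PC5.

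*Fzd4*, the receptor of Norrin on retinal and brain endothelium, had 155 UMIs in PC5 (0.695 CPM, 0.590 to 0.813) against 795 in PC20 (4.16 CPM, 3.88 to 4.46), the lowest log2 ratio of all measured members at -2.58 (-2.84 to -2.33). *Fzd8* had 2.88 CPM in PC5 against 5.08 CPM in PC20, for a log2 ratio of -0.82 (-0.96 to -0.67). *Fzd7* was at 12.3 and 15.2 CPM and *Fzd5* at 6.10 and 6.64 CPM, so both were close in the 2 cultures. *Fzd9* with 32 and 55 UMIs and *Fzd10* with 9 and 0 were below the minimum.

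Receptor RNA summed to 193 CPM in PC5 against 65.4 CPM in PC20, for a log2 ratio of 1.56 (1.53 to 1.59). In PC5 *Fzd2* gave 39.9% and *Fzd6* 38.5% of it. In PC20 *Fzd2* gave 35.3%, *Fzd7* 23.2%, and *Fzd6* and *Fzd5* 10.2% each, with *Fzd8*, *Fzd1* and *Fzd4* between 6.37% and 7.78%, so the receptor pool was spread over more genes. At matched depth 42.0% of PC5 cells and 12.7% of PC20 cells had UMIs of 2 or more different *Fzd* genes (67.8% and 53.1% unthinned).

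The co-receptors were close in level in the 2 libraries. *Lrp6* had 38.5 CPM in PC5 (37.6 to 39.3) against 33.3 CPM in PC20 (32.5 to 34.1), for a log2 ratio of 0.21 (0.16 to 0.25). *Lrp5* had 19.5 CPM in PC5 (18.9 to 20.0) against 15.1 CPM in PC20 (14.6 to 15.7), for a log2 ratio of 0.36 (0.30 to 0.43). Their order was the same in both libraries. They lay on the PC5 side by their CPM, although a larger share of unthinned cells held an *Lrp* UMI in PC20 (73.7% against 66.0%). At matched depth the shares were 39.3% and 44.1%.

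Ligand and receptor RNAs were found in the same cells. At matched depth 54.3% of PC5 cells (53.3 to 55.3) had a UMI of a *Wnt* and of a *Fzd* gene, and 18.7% of PC20 cells (17.5 to 19.8). The product of the separate shares was 54.1% in PC5 and 17.4% in PC20. In unthinned cells the shares were 76.0% and 59.9%. *Wnt2* and *Wnt5a* occurred together in 14.2% of thinned PC5 cells, where the product of their shares is 14.6%, and *Fzd2* and *Fzd6* in 24.6%, where the product is 22.7%. Of these 4 shares, the interval lay above the product for *Fzd2* with *Fzd6* in PC5 (23.7 to 25.5) and for *Wnt* with *Fzd* genes in PC20, and held it for *Wnt2* with *Wnt5a* (13.5 to 14.9) and for *Wnt* with *Fzd* genes in PC5.

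Among the roles with a measured gene, the secreted antagonists had the largest ratio of summed levels. *Dkk3*, a divergent Dickkopf family member, had 9638 UMIs in PC5 (43.2 CPM, 42.4 to 44.1) against 12 in PC20 (0.0628 CPM, 0.0324 to 0.110), for a log2 ratio of 9.43 (8.62 to 10.38). It was found in 34.9% of thinned PC5 cells and 0.0894% of thinned PC20 cells (54.0% and 0.211% unthinned). *Dkk2*, which binds *Lrp5* and *Lrp6* proteins, had 1099 UMIs in PC5 (4.93 CPM) against 31 in PC20 (0.162 CPM), for a log2 ratio of 4.92 (4.41 to 5.49). *Sfrp1*, a decoy that binds Wnt proteins, was the only antagonist measured in both libraries, with 10.5 CPM in PC5 (10.0 to 10.9) against 2.80 CPM in PC20 (2.57 to 3.05), for a log2 ratio of 1.90 (1.76 to 2.04). All 3 were more than 2-fold higher in PC5, where 21.6% of all measured genes were. *Dkk2* and *Dkk3* passed the minimum only in PC5, so they had to differ between libraries to be measured.

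The other 5 antagonists had next to no UMIs. *Dkk4* and *Sfrp5* had 0 in both libraries, *Dkk1*, a classical *Lrp* blocker and β-catenin target, had 1 in PC5 against 0 in PC20, *Sfrp2* had 6 and 5, and *Sfrp4* 3 and 7. Together the 8 *Sfrp* and *Dkk* genes, called antagonists here by family name, summed to 58.6 CPM in PC5 against 3.09 CPM in PC20. Their summed log2 ratio was 4.24 (4.13 to 4.37). At matched depth 42.1% of PC5 cells and 2.53% of PC20 cells had a UMI of any (61.5% and 9.01% unthinned). *Dkk3* gave 73.7% of these UMIs in PC5 and *Sfrp1* 90.7% in PC20. The PC5 sum thus rests mostly on *Dkk3*, whose action on Wnt signals was not tested here.

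No cell type that should lack these genes was present to set a background from free RNA. The 5 neuron markers, which cultured pericytes should lack, give a rough level in PC20: *Rbfox3* and *Gad1* had 0 UMIs, *Snap25* and *Syt1* 3 each (0.0157 CPM), and *Slc17a7* 18 (0.0942 CPM). *Wnt16* in PC20 was at the level of *Snap25* and *Syt1*. By CPM *Dkk3* lay above 4 of the 5 markers and below *Slc17a7*, and *Fzd3*, *Dkk2* and *Wnt7b*, between 0.115 and 0.188 CPM, lay above all 5. The interval of *Slc17a7* (0.0558 to 0.149) still overlapped those of *Fzd3* (0.0721 to 0.174), *Dkk2* (0.110 to 0.230) and *Wnt7b* (0.132 to 0.261). Neuron markers do not measure free RNA of the Wnt genes, and whether any of these counts is background was not tested.

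R-spondins, which strengthen Wnt signals by keeping Frizzled proteins at the surface, were all below the minimum. *Rspo3* was just outside it with 135 UMIs in PC5 against 162 in PC20 (0.633% and 0.939% of thinned cells). *Rspo1* and *Rspo2* had 101 and 35 UMIs in PC5 against 0 in PC20, and *Rspo4* had 2 and 0. *Rspo4os* had 1 UMI in PC5 against 35 in PC20.

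The *Axin* pair split. *Axin1*, the constant scaffold of the β-catenin destruction complex, had 14.0 CPM in PC5 (13.5 to 14.5) against 17.6 CPM in PC20 (17.0 to 18.2), for a log2 ratio of -0.33 (-0.40 to -0.26). *Axin2*, the scaffold whose gene is itself a feedback target of β-catenin, had 776 UMIs in PC5 (3.48 CPM, 3.24 to 3.73) against 120 in PC20 (0.628 CPM, 0.521 to 0.751), for a log2 ratio of 2.47 (2.19 to 2.76). *Lef1*, a transcription factor of the pathway and also a target, had 54 UMIs in PC5 against 9 in PC20, for a log2 ratio of 2.36 (1.33 to 3.57), and was below the minimum.

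The nearest measured genes on either side of the 8 members that passed in only 1 library did not all share their ratios. Next to *Wnt2*, *St7* at 45.9 kb had a log2 ratio of 0.30 (0.21 to 0.39) and *Cftr* on the other side 3.37 at low levels (2.61 and 0.251 CPM). *Usp47* and *Mical2* beside *Dkk3* were at 0.95 and 0.50. *Cped1* and *Fam3c*, on either side of *Wnt16*, were at 4.91 and 1.70, and *Extl3* and *Fbxo16* beside *Fzd3* at 2.33 and 1.98. *Papss1* and *Aimp1* beside *Dkk2* were at -1.10 and -0.64, and *Atxn10* and *AC162302.1* beside *Wnt7b* at -0.48 and -2.95. *Cep112* and *Gna13* beside *Axin2* were at -1.80 and 0.37, and *Prss23* and *Tmem135* beside *Fzd4* at 1.57 and -0.42. The neighbours of *Wnt16* and *Fzd3* thus lay past 1 on the same side as the member, and those of *Dkk2* and *Wnt7b* had the opposite sign. Their distances were unlike. The neighbours of *Wnt16* and *Fzd3* lay 4.2 to 42.6 kb away, those of *Wnt7b* 63.6 and 72.2 kb, and those of *Dkk2* 441.6 and 480.2 kb. *Gna13* lay 412 kb from *Axin2*, and *Tmem135* 0.133 kb from *Fzd4*.

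Other genes of the pathway were followed in 7 lists, whose counts past 2-fold stand beside the 21.6% of all measured genes higher in PC5 and the 18.9% higher in PC20. The lists were chosen with earlier results of these data known, so the shares are a description beside the counts and no test. In these lists too, a gene that passed the minimum in only 1 library had to differ between libraries to be measured. Besides 3 inhibitors named below, *Ror1*, *Ror2*, *Tspan12*, *Apc2*, *Pygo1*, *Tle2*, *Prickle1*, *Prickle2*, *Ascl2* and *Axin2* passed only in PC5. *Lgr6* passed only in PC20. Of 2 secretion genes, *Wls*, which carries Wnt proteins to the surface, had 249.5 CPM in PC5 against 102.5 CPM in PC20 (log2 ratio 1.28), and *Porcn*, which attaches their lipid, 0.982 and 3.57 CPM (-1.86). Of 12 other receptors and co-receptors 11 were measured, 6 higher in PC5 and 1 higher in PC20 past 2-fold, with a median log2 ratio of 1.37. *Ror2*, the receptor of *Wnt5a* signals that bypass β-catenin, had 1663 UMIs in PC5 (7.46 CPM) against 0 in PC20. *Ptk7* (4.47) and *Ror1* (3.81), of the same branch, were also higher in PC5, and the R-spondin receptor *Lgr6* was higher in PC20 (-3.59). These 4 are the genes of the list with the largest ratios, and *Ryk*, another receptor of that branch, was within 2-fold (0.67).

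Of 16 other inhibitors 6 were measured, 4 higher in PC5 past 2-fold against 0 in PC20, with a median log2 ratio of 5.16. *Frzb*, an *Sfrp* family member under another name, had 5915 UMIs in PC5 against 6 in PC20 (log2 ratio 9.72, 8.60 to 11.17). *Wif1*, which binds Wnt proteins, had 1844 UMIs in PC5 against 0 in PC20, and *Trabd2b*, a Wnt-cleaving protease, had 4368 and 13 (8.17). *Igfbp4*, a growth factor binding protein that can block Wnt signals, had 182.5 and 41.0 CPM (2.15). *Frzb*, *Wif1* and *Trabd2b* passed the minimum only in PC5, as *Dkk2* and *Dkk3* did. They had to differ between libraries to be measured, and the median of 5.16 depends on them. The inhibitors that passed in both libraries were *Igfbp4* (2.15), *Kremen1* (0.50) and *Znrf3* (-0.51).

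The cytoplasmic core had small ratios. Of its 16 genes, all measured, 14 were within 2-fold and the median log2 ratio was 0.22. The exceptions were *Apc2* (2.47) and *Dvl3* (1.11). *Ctnnb1*, which encodes β-catenin, had 176 CPM in PC5 against 117 CPM in PC20 (0.59). *Dvl1* was at -0.93. Of 14 nuclear factors, all measured, 6 were higher in PC5 and 8 within 2-fold, with a median log2 ratio of 0.87, led by the cofactor *Pygo1* (5.37), the TCF factor *Tcf7l1* (3.95) and the co-repressors *Tle2* (3.35) and *Tle4* (2.07). Of 20 planar polarity and β-catenin-independent genes 16 were measured, 3 higher in PC5, 1 higher in PC20 and 12 within 2-fold, with a median of 0.38. The list was led by *Prickle2* (5.38) and *Prickle1* (4.15), with *Vangl2* at 1.20 and *Invs* at -1.11.

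Of 25 known β-catenin targets, 3 of which belong to the 47 genes, 11 were measured. Of these 4 were higher in PC5, 2 higher in PC20 and 5 within 2-fold, with a median log2 ratio of 0.76. The stem cell factor *Ascl2* (5.87) and the adhesion receptor *Cd44* (1.74) were on the side of *Axin2*, and the TGF-β pseudoreceptor *Bambi* (-2.33) and the AP-1 factor *Fosl1* (-1.62) on the other.

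**Figure D3:**
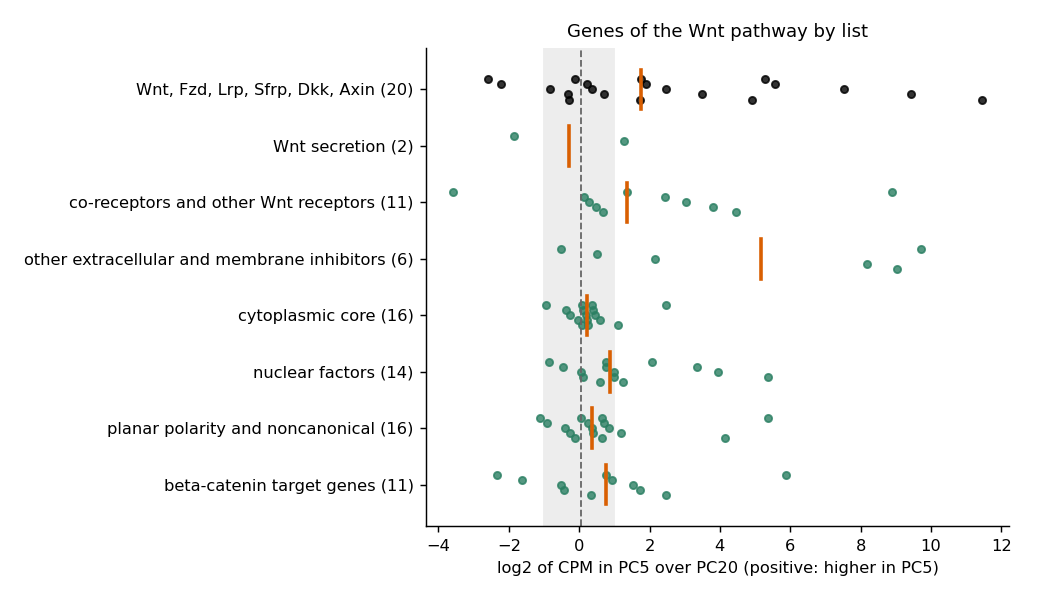
Log2 ratio of CPM in PC5 over PC20 for each measured gene of the rule (black) and of 7 other pathway lists (green), with the number of genes in parentheses and the list's median as an orange bar. The grey band is 2-fold either way and the dashed line is the median of all measured genes (0.04). Among the 7 lists the inhibitors and the other receptors reach the largest values, while 14 of 16 cytoplasmic core genes lie in the band.

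The members were also compared within PC5 between cells split on 1 marker at a time. In thinned cells with a *Pdgfra* UMI, a fibroblast lineage marker, against those without, *Dkk2* was at 6.66 and 3.14 CPM (log2 ratio 1.08, 0.79 to 1.38), while *Wnt2* was at 46.9 and 42.6 CPM (0.14, 0.05 to 0.23) and *Dkk3* at 49.2 and 39.1 CPM (0.33, 0.24 to 0.42). In cells with a *Pdgfrb* UMI, the mural marker, *Fzd2* was at 87.8 CPM against 73.9 CPM (0.25, 0.18 to 0.32) and *Wnt2* at 45.1 against 44.7 CPM (0.01, -0.08 to 0.11). In cells with a UMI of the proliferation genes *Mki67* or *Top2a*, *Axin2* was at 2.67 CPM against 4.07 CPM in the rest (-0.61, -0.98 to -0.25), and *Dkk2* at 3.83 against 5.60 CPM (-0.55, -0.86 to -0.25). For each of these 5 genes the difference within the culture was smaller than its ratio between the libraries. That did not hold for every member. *Axin1* had a log2 ratio of 0.34 (0.17 to 0.50) in the *Mki67* or *Top2a* split, against -0.33 between the libraries. *Fzd7* had 0.31 (0.13 to 0.48) in the *Pdgfrb* split, against -0.30. A *Pdgfrb* UMI was seen in 35.3% of thinned and 54.2% of unthinned PC5 cells, so cells without one can still hold its RNA.

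Clusters were made in each library without the 47 genes, and are given by number and leading genes. A cluster's levels are a description and no test, since all cells come from 1 library. Over the 9 clusters of PC5, *Wnt2* ranged from 22.4 to 59.2 CPM, a factor of 2.65, and in all 11 PC20 clusters of at least 50 cells it had 0 UMIs. Cluster 6 of PC5 had 903 cells and was led by *Trp53i11*, *Stra6*, *Clu*, *Nrep*, *Col6a3* and *Postn*. In it, 14 of the 20 measured genes lay above and 1 (*Wnt2*) below the other cells beyond the counting interval. The 14 log2 ratios ran from 0.21 (*Fzd1*) to 1.82 (*Axin2*). The share of all genes beyond their intervals in this cluster was not computed, so the count has no background beside it. Cluster 6 held the highest levels of *Axin2* (10.0 CPM), *Wnt16* (7.43), *Wnt7b* (16.6), *Sfrp1* (18.9), *Dkk3* (68.1) and *Fzd6* (118). *Axin2* and *Wnt7b* were thus both high in cluster 6, in which *Wnt2* was low at 24.5 CPM. The pair did not go together in every cluster. In cluster 5 *Wnt7b* was above the other cells (10.9 CPM, log2 ratio 0.66) and *Axin2* below them (2.38 CPM, -0.59). In cluster 9 *Axin2* was above the other cells with 14 UMIs (7.6 CPM, 1.15, 0.27 to 1.90). *Wnt7b* had 12 UMIs there (6.54 CPM, -0.15, -1.10 to 0.66). These 2 intervals overlap, so cluster 9 does not set the pair apart.

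Cluster 4, of 1559 cells led by *Il33*, *Trf*, *Dcn* and *Mmp3*, had the highest *Dkk2* (12.1 CPM) and *Fzd2* (96.6 CPM), and cluster 5, of 1003 cells led by *Mgp* and *Angpt2*, the highest *Wnt2*. Cluster 9, of 109 cells led by *Mt3*, *Igfbp2*, *Lcn2*, *Gpm6b* and *Fabp7*, held 27.3 CPM of *Wnt9a* (20.2 to 36.0), for a log2 ratio of 4.93 (4.45 to 5.38) over the other PC5 cells. *Fzd5* (21.3 CPM) and *Fzd3* (15.3 CPM) were also highest there, while *Fzd2* (25.6 CPM), *Fzd6* (30.5 CPM) and *Wnt2* (22.4 CPM) were low and *Dkk2* had 0 UMIs. The 109 cells held 50 of the 248 *Wnt9a* UMIs of PC5. Cluster 7, of 328 cells led by *AY036118* and *Acta2*, was the lowest for most members and had a median of 5671 UMIs per cell.

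In PC20, *Sfrp1* was highest in cluster 5 (7.65 CPM), of 363 cells with *Bgn* and *Ckb* among its leading genes, and *Wnt5a* (56.6 CPM), *Wnt9a* (7.14), *Fzd6* (9.42) and *Lrp5* (24.9) in cluster 10, of 193 cells led by *Ogn*, *Lcn2* and *Aldh1a1*. *Wnt9a* ranged over 2.70 to 7.14 CPM, so all 11 PC20 clusters lay above the PC5 level of 1.11 CPM. At a resolution of 1.0, the highest PC20 levels of *Wnt5a* (58.0 CPM), *Wnt9a* (11.5) and *Fzd6* (12.9) were in clusters with 0% of their cells from cluster 10. That of *Lrp5* (22.8 CPM) was in a cluster with 58.7% of its cells from cluster 10. The highest *Sfrp1* (12.6 CPM) was in a cluster with 99.2% from cluster 5. With a resolution of 1.0 in place of 0.5, the highest *Axin2* level in PC5 was 8.17 CPM in a cluster of 972 cells, 79.1% of them from cluster 6, which also had the highest *Wnt7b*, *Sfrp1* and *Fzd6*. The highest *Dkk3* (105 CPM) and *Wnt16* (6.82 CPM) were then in a cluster of 166 cells of which 0.602% came from cluster 6. The highest *Wnt2* (60.9 CPM) was then in a cluster of 823 cells of which 0.12% came from cluster 5. The highest *Wnt9a* level in PC5 was 3.85 CPM, in a cluster of 843 cells of which 7.83% came from cluster 9, and *Fzd5* reached 10.5 CPM and *Fzd3* 9.82 CPM in the cluster of 972 cells, none of them from cluster 9. With a resolution of 0.3 the highest levels were 4.24 CPM for *Axin2*, 1.33 for *Wnt9a*, 6.83 for *Fzd5* and 6.98 for *Fzd3*. The highest levels of *Wnt9a*, *Fzd5* and *Fzd3* were thus lower at both other resolutions than in cluster 9.

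**Figure D4:**
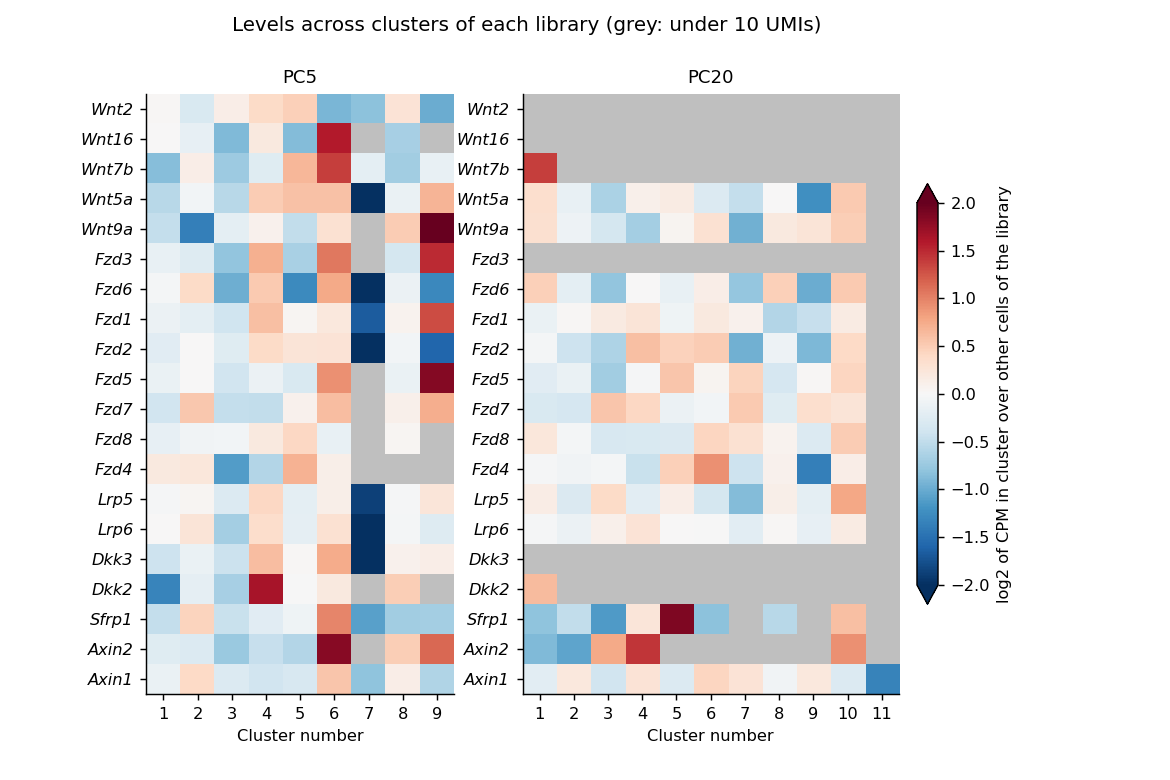
Log2 of the CPM of each measured gene in a cluster over the other cells of the same library, for 9 clusters of PC5 and 11 of PC20, with red above and blue below, colours capped at 2 either way and grey where the cluster held under 10 UMIs. Cluster 6 of PC5 is red for most genes but blue for *Wnt2*, cluster 9 is red for *Wnt9a*, *Fzd5* and *Fzd3*, and *Wnt2*, *Wnt16*, *Fzd3* and *Dkk3* are grey throughout PC20.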

How the data were processed

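The authors made the deposited count matrices, UMI counts per gene and barcode, with CellRanger 5.0.1 (by the file headers; 5.0 in the processing notes) on mm10 from 10x 3′ libraries, and did not normalize them. The paper's filter of over 1000 genes and less than 20% mitochondrial UMIs per cell was applied, leaving out 679 PC5 and 135 PC20 barcodes. No doublets were removed and no caller was run. For shares, cells were thinned at random to 10500 UMIs, leaving out 1103 PC5 and 275 PC20 shallower cells. Intervals are exact Poisson (CPM), Clopper-Pearson (shares) and conditional binomial (ratios), at 95%, and cover counting error only. A level of 0 was set to 3 UMIs for a ratio. Clusters were made with scanpy 1.11.5 (2000 variable genes, 15 dimensions, 20 neighbours, resolution 0.5). Positions are from GENCODE M21, which held 31011 of 31053 identifiers. Scripts were tested on simulated data.

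Genes named are all measured members, others by UMIs, and up to 4 genes per further list with the largest ratios. *Fosl1*, *Slc17a7* and *Tspan12* were named after their values were seen. The members and lists were chosen with earlier results of these data known. Alternatives were other cell filters, depths, scalings, detection minimums, folds and a pseudocount. Brain cells taken directly from adults or embryos were not analysed here.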

Additional observations from a re-analysis of the deposited data

How the results depend on the processing

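Over 10 alternatives of cells and scaling, none of the 200 values of the 20 measured genes changed sign, and 1 crossed 2-fold, *Fzd8* at -1.18 in cells with no *Pdgfra* UMI. Under each of these alternatives 11 genes were higher in PC5. The shares of all genes past 2-fold under them are not given here. The median log2 ratio was 1.59 in cells with no *Mki67* or *Top2a* UMI, 1.43 in cells with a *Pdgfrb* UMI and 1.50 in cells with no *Pdgfra* UMI, the latter pair and the other cluster resolutions being chosen after seeing the data. It moved most with the detection minimum, to 0.70 with a UMI in at least 10% and 0.53 with a UMI in at least 1% of unthinned cells. With at least 10 UMIs in either library as the minimum it was 1.74. With the 10% minimum 17 genes were measured, 8 higher in PC5 and 2 in PC20. With the 1% minimum 26 were measured, 12 higher in PC5 and 4 in PC20. With at least 10 UMIs as the minimum, 33 genes were measured, 18 higher in PC5 and 5 in PC20. The shares of all genes past 2-fold under these minimums are not given here, so the counts have no background beside them. The median log2 ratios of all genes were -0.03, 0.03 and 0.13 in that order. With a pseudocount of 1 on UMIs per 10000, 0 genes were past a log2 difference of 1 in either direction. That outcome was fixed in advance. The most abundant member, *Fzd2* at 77.0 CPM in PC5, lies under 1 UMI per 10000, so no member could pass. This alternative therefore says nothing of the differences between the libraries. Passage, isolation and library cannot be told apart. No paired analysis was possible because each passage has only 1 library.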
